A study of Mus musculus with 6 samples.

Results

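The 61 genes described here are the BMP, TGF-beta and activin genes of the mouse uterine tube data, taken from 50559 listed genes by symbol: the Bmp, Gdf, Tgfb, Inh and Ltbp series, the Acvr, Bmpr and Tgfbr receptors, the Smads, the Fst and Fstl series and other antagonists such as Nog, Chrd and Grem1. The choice used names and no measured values. It takes in some genes whose proteins are not ligands, receptors or Smads of the pathway, among them Bmp1, a secreted protease. The data are single-cell RNA profiles of the uterine tube (oviduct) of adult C57BL6 females in estrus, with no treatment or mutation in any group. There were 3 libraries of the distal section, written distal 1, 2 and 3, and 3 of the proximal section, written proximal 2, 3 and 4 after the numbers in their titles. Each library pooled the tubes of a group of mice, so 1 library is 1 replicate and the spread between mice within a group was not measured. Tissue was digested and depleted of dead cells before 10x Genomics 3' v2 capture, so the profiles cover the cells that came through dissociation.

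Ligands of this family are secreted as dimers and bind pairs of type I and type II receptor kinases, which phosphorylate Smad transcription factors: Smad1, Smad5 and Smad9 for most BMPs, Smad2 and Smad3 for TGF-beta and activin, with Smad4 as the shared partner. TGF-beta is held in the matrix in a latent form by the Ltbp proteins, and secreted antagonists such as follistatin, noggin and chordin trap BMPs or activins. In the female reproductive tract the family is known for its part in duct formation, in stroma and smooth muscle, and in the ovary, where inhibins and activins are made.

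Libraries differed in depth. The distal libraries kept 6652, 4115 and 5417 cells and the proximal ones 824, 325 and 1133, and total UMIs (unique molecular identifiers, the counted transcripts) ran from 426707 in proximal 3 to 32488145 in distal 1. Pairs of libraries shared 0 to 58 cell barcodes, at most 1.83% of the smaller library. Clusters were assigned to 5 classes from fixed markers: non-ciliated epithelium, ciliated epithelium, fibroblasts, smooth muscle and blood endothelium. At least 8 of the 9 smooth muscle markers and 9 of the 10 or 11 markers of each other class had counts in every library used. Levels are CPM: the counts of a gene summed over the cells of a class in 1 library, scaled to 1e+06 counts of all genes. The proximal sums of smooth muscle (15647 and 61682 UMIs) and of blood endothelium (31639 and 92362 UMIs) were small, so that 1 UMI was worth 63.9 CPM in proximal 3 smooth muscle. Proximal 2 had 0 smooth muscle and 2 endothelial cells, and proximal 3 had 7 ciliated cells. These libraries had under 10 cells of the class and did not enter there.

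Of the 61 genes, 39 reached a mean of 20 CPM in at least 1 class and region. The other 22 did not: Bmp3, Bmp8a, Bmp8b, Bmp10, Bmp15, Gdf1, Gdf2, Gdf3, Gdf5, Gdf6, Gdf7, Gdf9, Smad9, Chrd, Grem1, Nog, Fstl5, Inha, Inhba, Inhbc, Acvr1c and Acvr2b. Bmp10 and Gdf7 had 0 UMIs in all kept cells. Bmp8a and Bmp8b are close copies of each other, between which reads can be lost, and their counts are uncertain. In the distal libraries 13 of the 39 were highest in fibroblasts, 10 in smooth muscle, 10 in blood endothelium, 4 in ciliated and 2 in non-ciliated epithelium. For 16 of the 39 the lowest library of the highest class lay above the highest library of the next class. The same held for 46.9% of the 12745 genes of the whole matrix that reached that level, so class separation was about as common among the members as among other genes. The classes came from clustering the same cells, and these orders are a description with no test.

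**Figure D1:**
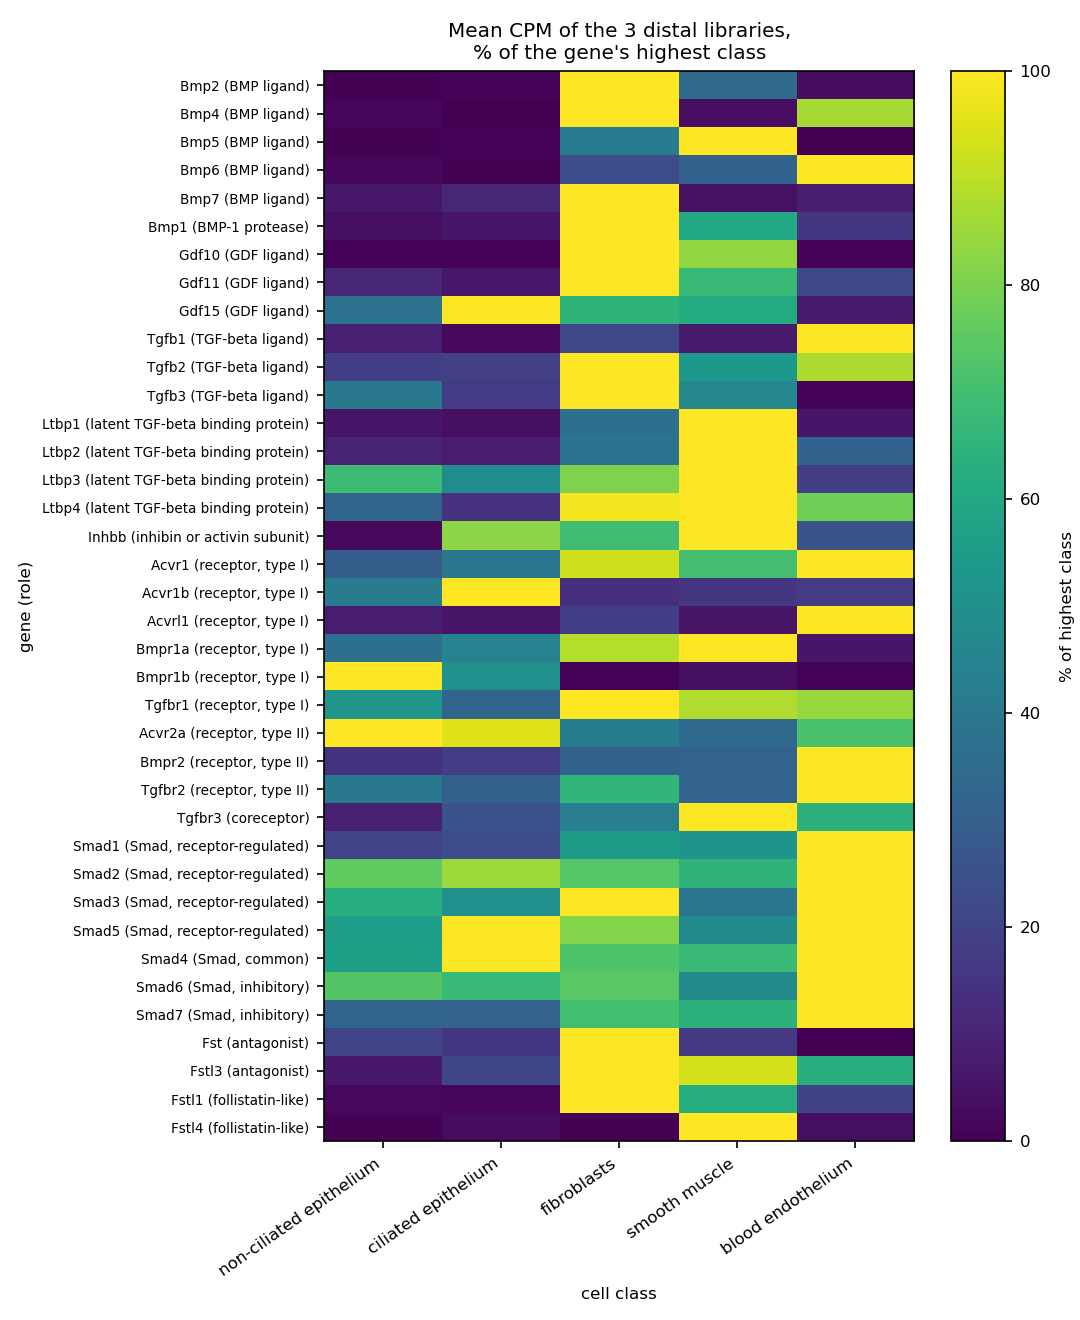
Each row is a gene reaching 20 CPM (1 of the 39 is not shown) and each column a cell class; colour gives the mean CPM of the 3 distal libraries as a percent of the gene's highest class. Ligands and secreted antagonists are mostly brightest in fibroblasts, Ltbp genes in smooth muscle, and several receptors and Smad1 in blood endothelium.

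Among BMP ligands, Bmp2 and Bmp7 were fibroblast genes in the distal tube. Bmp2 stood at 59.8, 56.2 and 52.9 CPM in the fibroblasts of distal 1, 2 and 3 and at 16.9 to 20.8 CPM in smooth muscle, the next class. Bmp7, an epithelial and stromal morphogen in many organs, stood at 82.4, 120 and 111 CPM in fibroblasts and at 11.3 ± 1.35 CPM (SD, n = 3) in ciliated epithelium, with no overlap. Bmp4 reached 21.6 ± 3.84 CPM in fibroblasts and 18.7 ± 4.77 CPM in blood endothelium (both SD, n = 3), and the libraries of these classes overlapped. Bmp6 was the ligand with its highest level in blood endothelium, at 12.9, 50.1 and 23.3 CPM, of which the lowest lay just above the 12.8 CPM of smooth muscle in distal 1. Bmp5 was near the level of 1 UMI in most classes and passed 20 CPM only through 1 UMI in proximal 3 smooth muscle. Bmp1, the procollagen C-proteinase that also cuts the BMP antagonist chordin, was highest in fibroblasts at 150, 124 and 156 CPM, and stood at 81.6 to 89.9 CPM in smooth muscle.

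The 3 GDF ligands that reached the level differed in place. Gdf10, a Bmp3-related ligand, was shared by fibroblasts (128, 63.9 and 114 CPM in distal 1, 2 and 3) and smooth muscle (84.3, 99.0 and 72.9 CPM), and lay at or below 2.64 CPM in every epithelial and endothelial library of the distal tube. Gdf11, a relative of myostatin, had 15.5 ± 4.52 CPM in fibroblasts and 10.4 ± 6.57 CPM in smooth muscle (SD, n = 3), which overlapped. Gdf15, a stress-induced hormone, was low in every distal class, with its highest mean of 12.1 ± 4.28 CPM (SD, n = 3) in ciliated epithelium.

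Each TGF-beta ligand had its own pattern over the classes. Tgfb1 was highest in blood endothelium, at 187, 193 and 132 CPM, against 49.4, 32.6 and 30.0 CPM in fibroblasts, with no overlap. Tgfb2 had overlapping levels in fibroblasts (95.7, 93.5 and 69.7 CPM) and blood endothelium (79.3, 64.4 and 82.9 CPM). Tgfb3 was highest in fibroblasts at 84.2, 74.3 and 91.0 CPM, was 38.5 ± 7.27 CPM (SD, n = 3) in smooth muscle and 29.6, 24.5 and 45.6 CPM in non-ciliated epithelium, and had 1 UMI in distal blood endothelium.

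The Ltbp genes were all highest in smooth muscle on average. Ltbp1, the main carrier of latent TGF-beta, stood at 781, 1054 and 885 CPM there and at 324 to 352 CPM in fibroblasts, with no overlap. Ltbp4, which also builds elastic fibres, overlapped among smooth muscle (300, 236 and 276 CPM), fibroblasts (304, 192 and 301 CPM) and blood endothelium (264, 150 and 220 CPM). Both epithelia lay below these, with 73.9, 100.1 and 88.3 CPM in non-ciliated and 20.5, 39.0 and 55.3 CPM in ciliated cells. Ltbp2 and Ltbp3 overlapped between smooth muscle and the next class as well. The activin subunit gene Inhbb overlapped between smooth muscle (13.7, 59.1 and 22.7 CPM), fibroblasts (11.5, 42.4 and 12.1 CPM) and ciliated epithelium (29.7, 18.6 and 30.6 CPM), and lay under 1 CPM in every distal library of non-ciliated epithelium. Distal 2 was the high library in both mesenchymal classes.

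Promoter windows were held for 44 of the 61 members in a RefSeq table of build GRCm38.p6 (300 bases, 250 before to 50 after the start). They are shown for Gdf10, Gdf15 and Ltbp4 because these are the 3 genes with an entry that passed the region test in more than 1 cell class; where a gene has several windows the one farthest upstream is given. Gdf10 lies at chr14:33923337-33923636 on the plus strand, Gdf15 at chr8:70632407-70632706 on the minus strand and Ltbp4 at chr7:27337563-27337862 on the minus strand, in coordinates of that build, which is not the build of the deposited counts. Letters run 5′ to 3′ on the gene's strand, and capitals mark matches on either strand to 3 motifs. These are the short Smad element CAGAC, whose reverse complement is printed as GTCTG, the longer Smad element GGCGCC, and the core promoter motif TATAAA.
Gdf10: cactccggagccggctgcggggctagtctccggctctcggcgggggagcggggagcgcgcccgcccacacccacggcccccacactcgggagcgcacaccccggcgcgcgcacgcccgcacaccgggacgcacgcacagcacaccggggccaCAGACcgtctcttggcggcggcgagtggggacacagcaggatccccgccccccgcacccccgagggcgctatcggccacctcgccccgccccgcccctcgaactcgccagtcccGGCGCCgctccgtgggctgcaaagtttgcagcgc
Gdf15: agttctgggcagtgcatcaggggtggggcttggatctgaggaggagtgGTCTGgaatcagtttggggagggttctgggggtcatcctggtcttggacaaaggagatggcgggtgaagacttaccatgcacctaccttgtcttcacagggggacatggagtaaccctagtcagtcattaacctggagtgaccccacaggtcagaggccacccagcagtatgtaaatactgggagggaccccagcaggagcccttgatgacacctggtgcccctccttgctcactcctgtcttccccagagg
Ltbp4: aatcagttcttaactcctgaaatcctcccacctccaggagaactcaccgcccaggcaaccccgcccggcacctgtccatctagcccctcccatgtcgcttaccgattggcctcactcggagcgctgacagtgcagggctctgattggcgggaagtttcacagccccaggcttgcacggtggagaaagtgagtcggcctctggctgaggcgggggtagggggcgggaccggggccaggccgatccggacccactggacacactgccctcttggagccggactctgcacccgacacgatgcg
No match overlaps another in these windows. CAGAC occurs in 49.5% of all 32544 windows of the table and in 51.8% of the 56 windows of members, GGCGCC in 11.9% and 23.2%, and TATAAA in 13.6% and 14.3%. A match is a run of letters and not a measured site.

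Some receptors were highest in epithelium and others in vessels. Bmpr1b, a type I BMP receptor, was an epithelial gene: 440, 301 and 655 CPM in non-ciliated and 163, 208 and 329 CPM in ciliated epithelium, which overlapped, against means of 19.3 CPM in smooth muscle and 5.33 CPM in fibroblasts. Bmpr1a, its close relative, was highest in smooth muscle and fibroblasts, with 182, 144 and 189 CPM in smooth muscle, 166, 139 and 154 CPM in fibroblasts, 63.5 ± 15.9 CPM in non-ciliated epithelium and 10.2 ± 4.64 CPM in blood endothelium (SD, n = 3). The activin receptor gene Acvr1b was highest in ciliated epithelium at 59.5, 43.2 and 57.7 CPM, above the 16.7 to 27.3 CPM of non-ciliated epithelium. Acvr2a, a type II activin receptor, overlapped between non-ciliated (39.1, 37.9 and 54.5 CPM) and ciliated epithelium (43.6, 44.6 and 37.4 CPM).

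Blood endothelium had the highest level of Acvrl1, the endothelial type I receptor ALK1, at 205, 200 and 153 CPM against 28.2 to 41.4 CPM in fibroblasts. Bmpr2, the type II BMP receptor, stood at 420, 408 and 451 CPM in endothelium, above the 108 to 163 CPM of smooth muscle. Tgfbr2, the type II TGF-beta receptor, stood at 196, 200 and 233 CPM, above the 132 to 144 CPM of fibroblasts. The type I receptor gene Tgfbr1 overlapped among fibroblasts, smooth muscle and endothelium. Acvr1 overlapped between endothelium (58.5, 35.8 and 82.9 CPM) and each of the other 2, whereas its fibroblast libraries (58.9, 50.3 and 55.4 CPM) lay above those of smooth muscle (41.9, 48.6 and 34.1 CPM). Tgfbr3, the coreceptor betaglycan that presents TGF-beta2 and binds inhibin, was highest in smooth muscle at 610, 523 and 658 CPM, with 376, 322 and 453 CPM in endothelium.

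Smads were spread over all classes. Smad1 alone had no overlap between its highest class and the next, with 290, 243 and 342 CPM in blood endothelium against 142 to 178 CPM in fibroblasts. Its means were 59.9 CPM in non-ciliated and 69.3 CPM in ciliated epithelium. Smad2, Smad3, Smad4, Smad5, Smad6 and Smad7 overlapped between their highest classes. Smad7, an inhibitory Smad and a target of TGF-beta, ranged from 19.7 ± 5.01 CPM in ciliated epithelium to 62.5 ± 17.7 CPM in endothelium (SD, n = 3).

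Among antagonists, Fst, which encodes the activin trap follistatin, was highest in fibroblasts at 28.0, 33.9 and 31.0 CPM, above the 11.4 CPM of its highest epithelial library. Fstl3, a second activin binder, overlapped between fibroblasts (13.8 ± 0.179 CPM) and smooth muscle (12.9 ± 3.92 CPM; both SD, n = 3). Fstl1, a secreted glycoprotein, stood at 360, 384 and 277 CPM in fibroblasts and at 190 to 232 CPM in smooth muscle. Fstl4 was close to a smooth muscle gene, with 74.3, 26.1 and 62.5 CPM there and at most 5.18 CPM in any other distal library.

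Free RNA in droplets gives every class some counts of genes it does not express. The markers of other classes were used as a yardstick, by their median share in each library, in percent of the level in their own class. A member at or below the highest of these medians over the libraries, in percent of its own highest class, was read as background. This put Bmp2 at background in non-ciliated epithelium, Bmp4 and Bmp6 in ciliated epithelium, Fstl4 and Bmpr1b in fibroblasts, Bmp4 and Bmp7 in smooth muscle, and Gdf10, Fst, Tgfb3, Bmp5, Bmpr1b and Bmp2 in blood endothelium. For fibroblast markers in blood endothelium the highest median was 5.12%, in distal 2, and the other libraries had 0.555 to 2.78%. Bmp2 lay between these, at 3.30%. Fibroblast markers reached 10.1 to 15.7% of their fibroblast level in distal smooth muscle, which lies beside the Gdf10, Bmp1 and Fstl1 levels given there.

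The study divided the tube into distal and proximal sections, and the remaining results compare them within each class. Tests were edgeR's quasi-likelihood test on summed counts, fitted on all genes of a class with Benjamini-Hochberg adjustment at 0.05. Log2 differences are proximal over distal with their standard error (SE), after TMM scaling, so they need not equal the ratio of the CPM. The median log2 difference of all genes tested was -0.46 in smooth muscle and -0.224 in ciliated epithelium, and within 0.1 of 0 in the other classes.

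In fibroblasts 3 of the 44 members tested changed: Fst and Gdf10 were lower and Ltbp4 was higher in the proximal tube. Of all 13761 genes tested there, 1.95% were called higher and 0.908% lower. The median log2 difference was 0.048 over the members tested and -0.029 over all genes. Leaving out proximal 2 gave 7 members called, with 1959 of all 15044 genes tested called in either direction, and leaving out distal 1, distal 3 or proximal 3 gave 1 member, Fst.

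Fst showed the clearest difference. It stood at 28.0, 33.9 and 31.0 CPM in distal 1, 2 and 3 and at 2.34, 10.5 and 2.80 CPM in proximal 2, 3 and 4, from 832 and 9 UMIs. The distal libraries lay close together and above every proximal one. The log2 difference was -3.50 (SE 0.41, adjusted p = 0.00401), and with each library left out in turn it passed the threshold every time. Within the fibroblast cluster C2, which leads with Inmt and Tcf21 and which all 6 libraries hold, Fst was also lower, by a log2 difference of -2.53 (adjusted p = 0.0444). In non-ciliated epithelium Fst had too few counts to be tested. It stood there at 6.5, 1.03 and 11.4 CPM in distal 1, 2 and 3, from 177 UMIs, and had 0 proximal UMIs. Against 3 counts over the proximal group that is at least 3.69-fold lower.

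Gdf10 stood at 128, 63.9 and 114 CPM in the distal libraries and at 21.1, 31.6 and 44.8 CPM in the proximal ones, from 2518 and 89 UMIs. The groups did not overlap, and distal 2 was the low distal library. The log2 difference of Gdf10 was -1.83 (SE 0.36, adjusted p = 0.0274). It lost its call without distal 1 (adjusted p = 0.1), distal 3 (0.0751) or proximal 3 (0.0823), and within cluster C2 it was -1.16 (adjusted p = 0.133).

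Ltbp4 was the fibroblast member that rose. Its levels were 304, 192 and 301 CPM in the distal and 518, 1022 and 1269 CPM in the proximal libraries, from 6672 and 2329 UMIs. Every proximal library lay above every distal one, and proximal 2 was the lowest of the 3. The log2 difference of Ltbp4 was 1.59 (SE 0.35, adjusted p = 0.0387). It lost its call without any 1 library other than proximal 2 (adjusted p = 0.0914 to 0.134), and within cluster C2 it was 1.20 (adjusted p = 0.2).

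Other fibroblast members differed without passing the test. Ltbp2, a fibrillin-binding relative of Ltbp1, stood at 6.34, 1.89 and 3.73 CPM against 8.20, 42.2 and 43.4 CPM (log2 difference 2.46, adjusted p = 0.057). Tgfbr2 stood at 138, 144 and 132 CPM against 216, 274 and 386 CPM (log2 difference 0.90, adjusted p = 0.114). Neither of these genes, picked after their values were seen, overlapped between the regions. The share of all genes tested without overlap was not counted. For Bmp4, 21.7, 17.7 and 25.4 CPM stood against 23.8, 84.3 and 53.2 CPM, which overlapped (log2 difference 0.80, adjusted p = 0.241). With a term for group 2, the libraries that carry that number in both titles and descriptions, 7 fibroblast members were called, among them Ltbp2 and Tgfbr2, along with 1191 of all 13761 genes. Granulosa cells of the nearby ovary also make follistatin and inhibins. Granulosa and luteal markers summed to 193 to 209 CPM in distal and 120 to 137 CPM in proximal fibroblasts, with 2 and 3 of 11 markers at 0, and blood endothelial markers to 18.9 to 22.7 and 48.4 to 84.3 CPM, with 0 and 1 of 10 at 0. Their part in these differences was not tested.

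**Figure D2:**
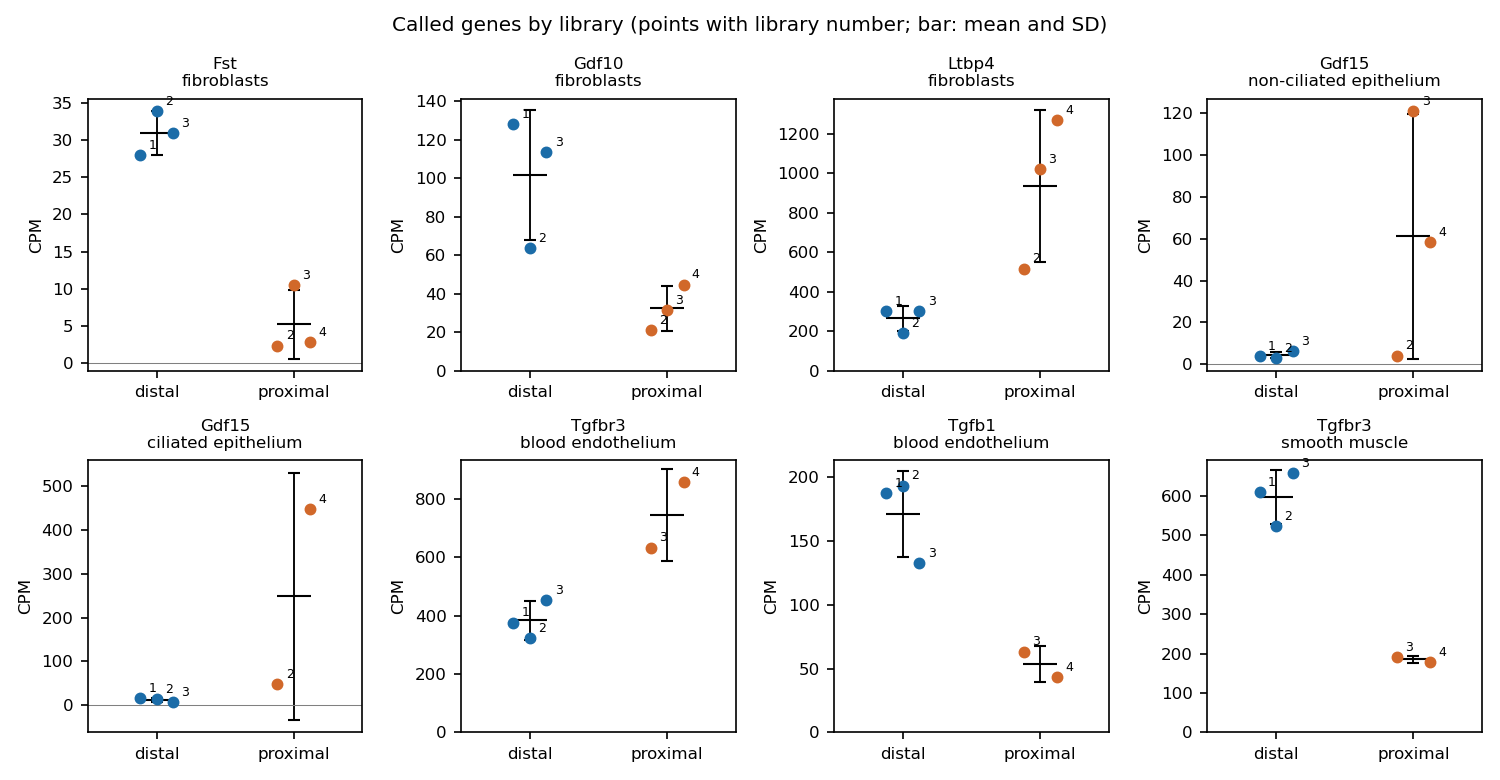
Each panel shows the CPM of 1 gene in 1 class, 1 point per library labelled with its number, with a bar at the mean and SD of each region. Fst, Gdf10 and Ltbp4 in fibroblasts separate the regions. Gdf15 in non-ciliated epithelium does not, because proximal 2 lies at 4.20 CPM among the distal libraries. The endothelial, ciliated and smooth muscle panels have 2 proximal libraries each.

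Fibroblast clusters differed in their ligands inside the distal tube. Clusters are named by number with their leading genes: C1 (Col7a1), C2 (Inmt, Tcf21), C3 (Adamtsl3, Ccl11), C7 (Dscam), C10 (Pi16, Apod), C11 (Ly6h) and the dividing cells C24 (Ube2c). The family's genes were not used to form the clusters, which can still vary with genes that were, so these values are a description. Bmp7 was 136, 161 and 149 CPM in C1 of distal 1, 2 and 3 and 164, 230 and 248 CPM in C10, but 3.79, 1.46 and 9.13 CPM in C2. Bmp2 followed the same division, with 110, 108 and 85.4 CPM in C10 and 16.3, 14.6 and 15.8 CPM in C2. In the proximal libraries 2, 3 and 4 the division was kept: Bmp7 had 369, 344 and 197 CPM in C10 and 2.73, 0 and 2.90 CPM in C2.

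Ltbp4 ran the other way, with 566, 370 and 621 CPM in distal C2 and 121, 83.0 and 166 CPM in C1. In proximal C2 its levels were 625, 2203 and 1742 CPM, of which proximal 2 overlapped the distal libraries. Inhbb was mostly a gene of C11 and C7, at 73.7 CPM in C11 and 79.1 CPM in C7 of distal 2, which held most of the distal cells of both clusters (305 and 674). Fst was 43.2, 63.6 and 51.2 CPM in distal C1, a cluster with 7 proximal cells, and 22.7, 26.2 and 23.3 CPM in distal C10 against 0, 0 and 8.37 CPM in proximal C10. Gdf10 stood at 174, 113 and 171 CPM in distal C1, at 130, 83.3 and 88.0 CPM in distal C10 and at 31.6, 21.5 and 41.9 CPM in proximal C10.

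**Figure D3:**
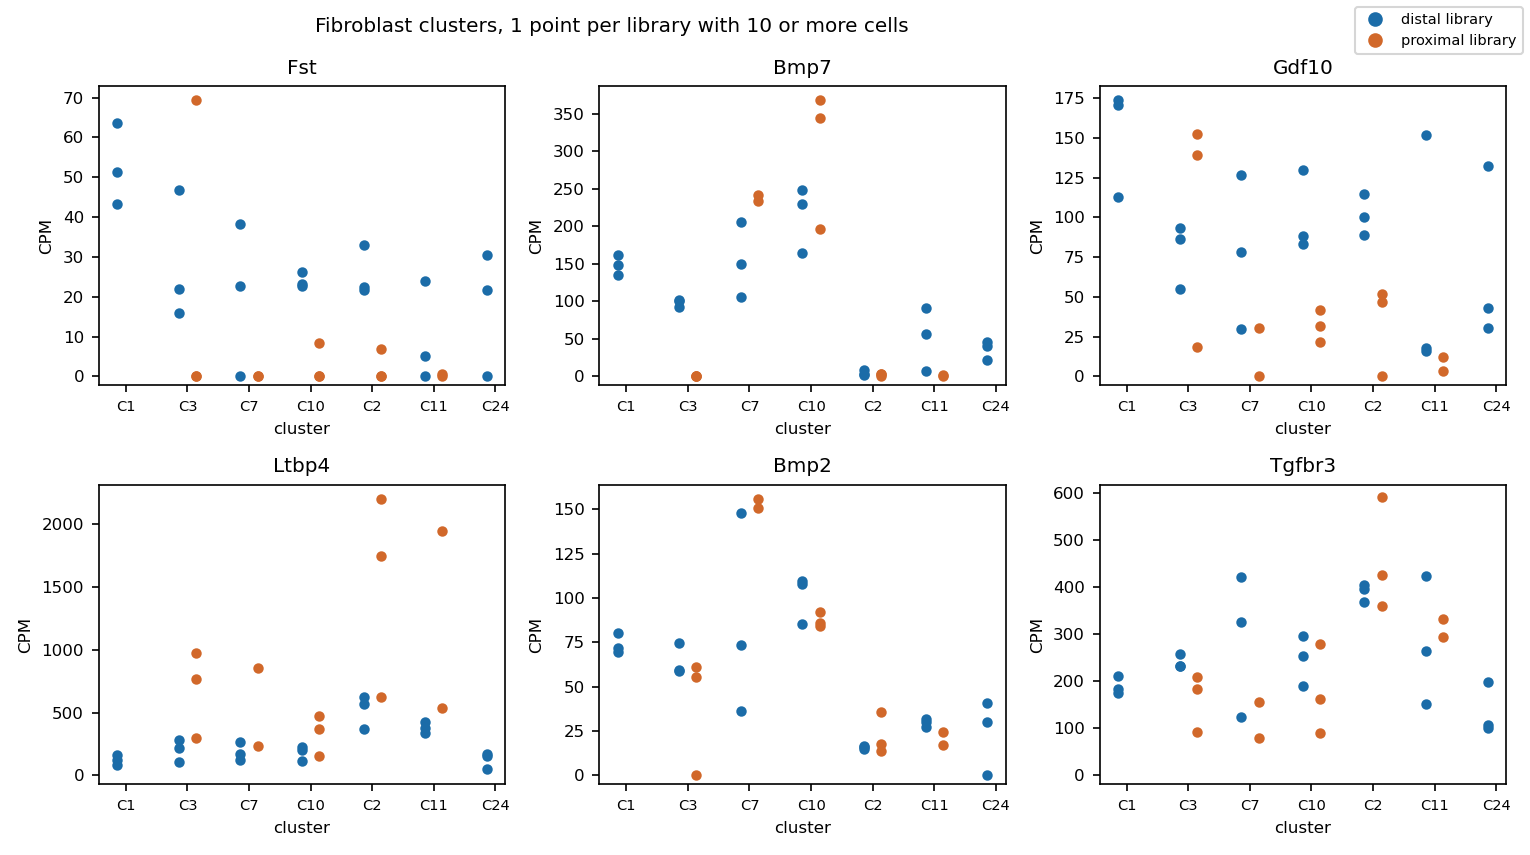
Points are libraries with at least 10 cells of a fibroblast cluster (x axis), in CPM, blue for distal and orange for proximal. Bmp7 and Bmp2 are low in C2 in both regions, Ltbp4 is highest in C2 and C11, and the proximal Fst points are at or near 0 in all but 1 cluster; the Fst point at 69.4 CPM in C3 is 1 UMI.

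In non-ciliated epithelium 1 of the 29 members tested changed, Gdf15, which rose. Of 12726 genes, 2.32% were called higher and 0.825% lower. The median log2 difference was -0.321 over the members and -0.077 over all genes. Gdf15 stood at 4.11, 3.10 and 6.21 CPM in the distal and at 4.20, 121 and 58.4 CPM in the proximal libraries, from 117 and 68 UMIs. Proximal 3 and 4 were high and proximal 2 was not, so the regions overlapped. The log2 difference was 3.35 (SE 0.75, adjusted p = 0.0419), and the call was lost without any 1 library other than proximal 2 (adjusted p = 0.122 to 0.235). Without proximal 2, 6 members were called, along with 3203 of all 14536 genes tested, in either direction.

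Gdf15 was uneven over epithelial clusters. Much of the proximal epithelium lay in 2 clusters with few distal cells, E12 (leading genes Penk and Serpina1e; 83 of the 90 cells of proximal 3 and 80 of the 146 of proximal 4) and E14 (Crabp2; 85 of the 286 cells of proximal 2). E12 carried 124 and 76.0 CPM of Gdf15 in proximal 3 and 4, or 64 of the 68 proximal UMIs, whereas E14 carried 4.54 CPM in proximal 2 from 1 UMI. In the proximal libraries with at least 10 cells of E0, E3, E4 or E7, Gdf15 had 0 UMIs. Without E12 and E14 the log2 difference of Gdf15 was -0.06 (adjusted p = 0.994), an alternative added after seeing the data. Proximal 3, with 83 of its 90 cells in E12, then had under 10 cells and did not enter. That fit therefore also lacked the library with the highest Gdf15 level.

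Several epithelial members pointed downward in the proximal tube without passing the test. Bmp3 stood at 17.3, 13.8 and 13.9 CPM in the distal and 2.80, 0 and 4.74 CPM in the proximal libraries (log2 difference -2.38, adjusted p = 0.0517). Ltbp1 stood at 66.7, 20.9 and 69.6 CPM against 11.2, 17.3 and 15.8 CPM (adjusted p = 0.0677), and Tgfb3 at 29.6, 24.5 and 45.6 CPM against 15.4, 12.9 and 12.6 CPM (adjusted p = 0.11). Bmp7 had 6.60 ± 2.00 against 0.993 ± 0.865 CPM (SD, n = 3 each; adjusted p = 0.109). None of these 4, picked after their values were seen, overlapped between regions, and how many of all genes tested do not overlap was not counted. With the term for group 2, 6 members were called in this class (Gdf15, Ltbp1, Tgfb3, Tgfbr3, Bmp3 and Acvr2a), along with 1522 of all 12726 genes. Mesothelial markers summed to 357 to 645 CPM in distal and 12.9 to 153 CPM in proximal non-ciliated epithelium, with 1 and 2 of 6 at 0, and distal cluster E1 leads with Msln; their part in these differences was not tested.

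Bmpr1b, the epithelial BMP receptor, divided the epithelial clusters. It was 675, 643 and 831 CPM in E4 and 464, 479 and 560 CPM in E1 of distal 1, 2 and 3, and 51.0, 23.0 and 96.7 CPM in E0 and 60.6, 16.3 and 46.0 CPM in E3. In proximal libraries E12 held 456 and 720 CPM and E14 9.08 CPM. Clusters with high Bmpr1b were also those with many UMIs per cell: the median UMI count was 3.28 times that of the cells' own libraries in E4 and 3.34 times in E12, against 0.798 times in E0, 0.646 times in E3 and 0.571 times in E14. CPM are scaled to the total, and the part of depth in this pattern was not tested.

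**Figure D4:**
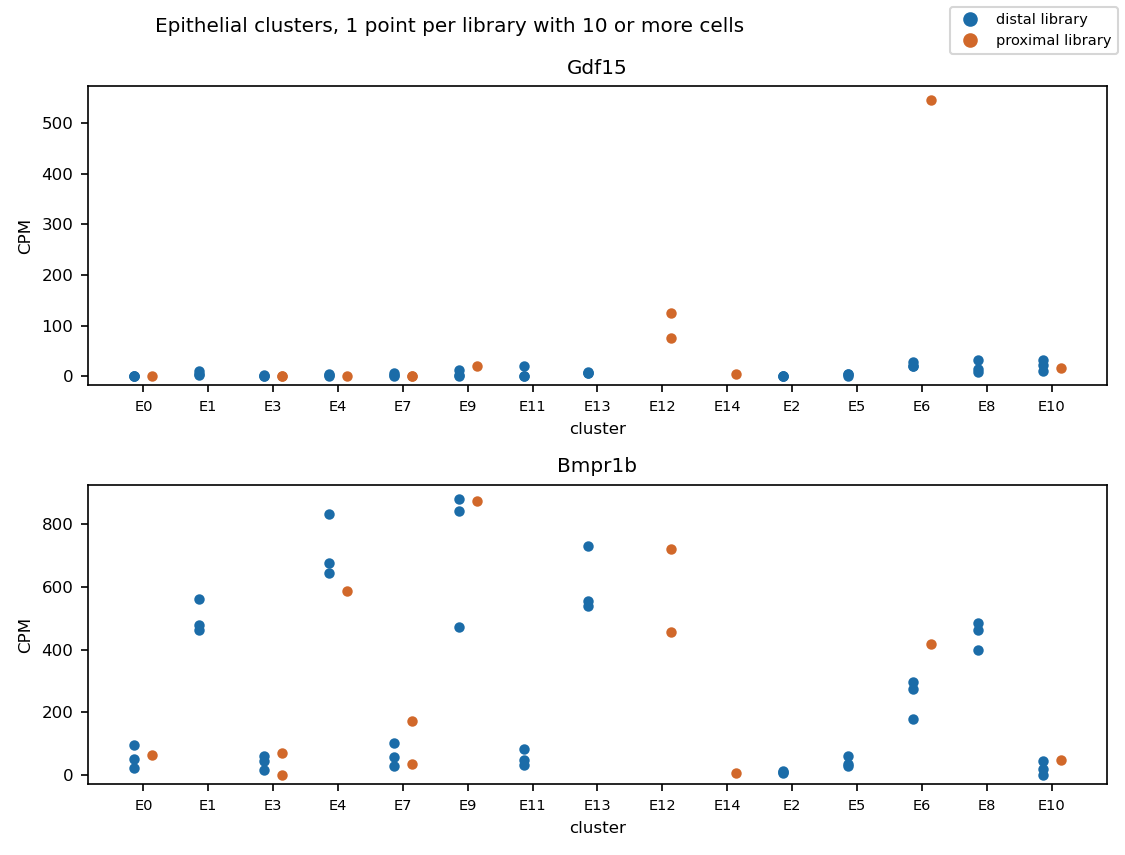
Points are libraries with at least 10 cells of an epithelial cluster, in CPM, blue for distal and orange for proximal; E2, E5, E6, E8 and E10 were named ciliated. Gdf15 is high in the proximal points of E12 and E6 alone, and Bmpr1b separates E1, E4, E9, E12 and E13 from the other non-ciliated clusters.

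In the cells named ciliated epithelium, 1 of 27 members tested changed, again Gdf15, against 0.634% of 13240 genes called higher and 0.431% called lower. The medians were -0.064 over the members and -0.224 over all genes. Gdf15 stood at 15.4, 13.5 and 7.25 CPM in distal 1, 2 and 3, at 48.9 CPM in proximal 2 and at 448 CPM in proximal 4, from 113 and 57 UMIs. The regions did not overlap, and proximal 4 was the high library. The log2 difference was 4.33 (SE 0.61, adjusted p = 0.0198). It was 2.07 (adjusted p = 0.291) without proximal 4 and 4.45 (adjusted p = 0.0535) without distal 2. In this class, smooth muscle and blood endothelium, leaving out 1 proximal library leaves 1, which is then assumed to vary like the distal libraries.

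The proximal ciliated cells came from different clusters than most distal ones, with 21 of the 24 cells of proximal 2 in E10 (leading gene S100g, cells with few UMIs) and 30 of the 34 of proximal 4 in E6. Inside E6, Gdf15 was 27.5, 21.1 and 20.9 CPM in the distal libraries and 545 CPM in proximal 4, and inside E10 it was 16.8 CPM in proximal 2 from 1 UMI. The class name of these cells depends on the clustering. At resolution 2, 28 of the 30 E6 cells of proximal 4 lay in a cluster (E22, leading gene Gdf15) that took the name non-ciliated epithelium, against 2 of 162, 2 of 75 and 2 of 150 in distal 1, 2 and 3, and the 21 E10 cells of proximal 2 lay in an unnamed cluster. That left no test of ciliated cells. Ciliated markers summed to 5378 CPM in the E6 cells of proximal 4 and to 8032, 8794 and 8347 CPM in those of distal 1, 2 and 3, and non-ciliated markers to 9848 against 9111, 6219 and 7464 CPM. Over the whole class the ciliated markers summed to 7370 to 9670 CPM in the distal and 4612 to 4749 CPM in the proximal libraries. The median UMI count of the E6 cells was 2.15 times that of their library in proximal 4 and 1.20 to 1.49 times in the distal libraries. The part of class naming and of UMI count in the Gdf15 difference was not tested. Tgfbr3 pointed the other way in this class, at 163, 127 and 160 CPM against 29.3 and 51.7 CPM (adjusted p = 0.0704). Acvr1, a type I receptor for BMPs and activins, had 261 UMIs in the distal and 0 in the proximal ciliated cells (adjusted p = 0.124). Against 3 counts over the proximal group that is at least 1.76-fold lower.

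In smooth muscle 8 of 32 members tested changed, 4 up and 4 down. The class differed widely between regions: of 8095 genes, 5.57% were called higher and 8.73% lower, and the median log2 difference was 0.302 over the members and -0.46 over all genes. The members called had 0 to 19 proximal UMIs each, in 27 and 45 cells.

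The 4 that rose were all ligands. Gdf11 and Gdf15 passed the filter on low counts only through the proximal libraries, where they were high. At their distal levels they could enter the test only by being higher proximally, so the filter partly set the direction of these calls. Tgfb3 stood at 33.7 to 46.9 CPM in the 3 distal libraries and at 320 and 227 CPM in proximal 3 and 4 (log2 difference 2.38, SE 0.49, adjusted p = 4.71e-05). Bmp2 stood at 16.9, 20.8 and 20.8 CPM against 63.9 and 162 CPM (2.55, SE 0.64, adjusted p = 0.00135), and without proximal 4 at 0.57 (adjusted p = 0.782). Neither gene overlapped between regions. Gdf11 stood at 16.5, 3.47 and 11.4 CPM against 447 and 32.4 CPM (2.92, SE 0.74, adjusted p = 0.00143), and without proximal 3 at 0.88 (adjusted p = 0.731). Gdf15 stood at 5.00, 8.68 and 8.52 CPM against 192 and 64.8 CPM (3.48, SE 0.89, adjusted p = 0.00165). Without proximal 3, Gdf11 and Gdf15 lost their call (Gdf15 adjusted p = 0.121), and 4 members were called in all. Without proximal 4, Tgfb3 (1.92, adjusted p = 0.203), Bmp2 and Gdf15 (adjusted p = 0.183) lost it, and 3 members were called.

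Those that fell were the coreceptor Tgfbr3, Ltbp4, Gdf10 and Fstl4. Ltbp4, Gdf10 and Fstl4 passed the filter on low counts only through the distal libraries, where they were high. Tgfbr3 stood at 610, 523 and 658 CPM in the distal and at 192 and 178 CPM in the proximal libraries (log2 difference -2.09, SE 0.48, adjusted p = 0.000364). Ltbp4 stood at 300, 236 and 276 CPM against 0 and 146 CPM (-1.63, SE 0.53, adjusted p = 0.0196). Over the whole class this direction was opposite to that in fibroblasts, but the mix of muscle clusters differed between regions, as given below. Neither gene overlapped between regions. Without proximal 4 the difference of Tgfbr3 was -2.84 (adjusted p = 0.0214), and without proximal 3 that of Ltbp4 was -1.37 (adjusted p = 0.101). Gdf10 had 522 distal UMIs and 0 proximal ones, which against 3 counts over the proximal group is at least 2.16-fold lower (adjusted p = 0.00313; 0.186 without proximal 4). Fstl4 had 423 and 0 UMIs, at least 1.75-fold lower (adjusted p = 0.0169), and missed the threshold with DESeq2 (adjusted p = 0.0617) and without proximal 3 or 4 (0.137 and 0.374).

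The proximal smooth muscle lay mostly in 1 cluster. All 27 cells of proximal 3 and 37 of the 45 of proximal 4 fell in cluster M1 (leading genes Ctnna3, Kcnab1 and Sncg), which held 126 of 1082, 4 of 126 and 24 of 339 cells of distal 1, 2 and 3. Pericyte markers summed to 318 to 544 CPM in distal and 1281 to 1534 CPM in proximal smooth muscle, with 0 and 2 of 8 at 0, and 217 of the 218 M1 cells came from a first-round cluster named pericytes (C13). Blood endothelial markers summed to 10.4 to 36.9 CPM in the distal and 211 to 256 CPM in the proximal libraries (1 and 9 of 10 at 0), granulosa or luteal markers to 113 to 129 and 320 to 827 CPM (2 and 7 of 11), and ciliated markers to 115 to 207 and 259 to 703 CPM (0 and 10 of 11). Mesothelial markers summed to 208 to 305 and 0 to 48.6 CPM (2 and 5 of 7). Myeloid markers summed to 9.47 to 23.2 and 32.4 to 63.9 CPM (1 and 7 of 10). The part of these cell types in the differences was not tested. For each of the 8 genes called, M1 cells of distal 1 and 3 differed from the other distal muscle in the same direction as the proximal cells did. Tgfbr3 was 188 and 219 CPM in M1 of distal 1 and 3 against 646, 522 and 688 CPM in the other distal smooth muscle, and 192 and 142 CPM in proximal M1. Bmp2 was 98.4 and 102 CPM in distal M1, 10.1, 19.4 and 15.2 CPM in the other distal cells and 63.9 and 177 CPM in proximal M1.

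Ltbp4, Gdf10 and Fstl4 were low in distal M1 too, at 19.7 and 29.2, 0 and 14.6, and 0 and 14.6 CPM, whereas the other distal cells held at least 238, 76.9 and 26.5 CPM. In M1 of proximal 3 and 4, Ltbp4 was 0 and 88.7 CPM, where 1 UMI was worth 63.9 and 17.7 CPM. Within M1 it was thus not lower in both proximal libraries. Gdf11 was 81.6 and 72.9 CPM in distal M1 and 447 and 35.5 CPM in proximal M1, the latter from 7 and 2 UMIs. Tgfb3 was 90.0 and 131 CPM in distal M1 and 320 and 248 CPM in proximal M1. Gdf15 was 47.8 and 29.2 CPM in distal M1 and 192 and 70.9 CPM in proximal M1, the latter from 3 and 4 UMIs. In a test within M1, with 2 libraries a region, 0 of 7 members tested were called by edgeR, 2 of them with an unadjusted p under 0.05. The other members had too few counts. Proximal M1 held 15647 and 56397 UMIs. The share of all genes called in that fit is not given here, so the count is not read as a result about the members. Tgfbr3 had a log2 difference of -0.42 (adjusted p = 0.606) and Tgfb3 of 1.33 (adjusted p = 0.122) there. Fstl4 was highest in cluster M6, at 154 and 213 CPM in distal 1 and 3.

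**Figure D5:**
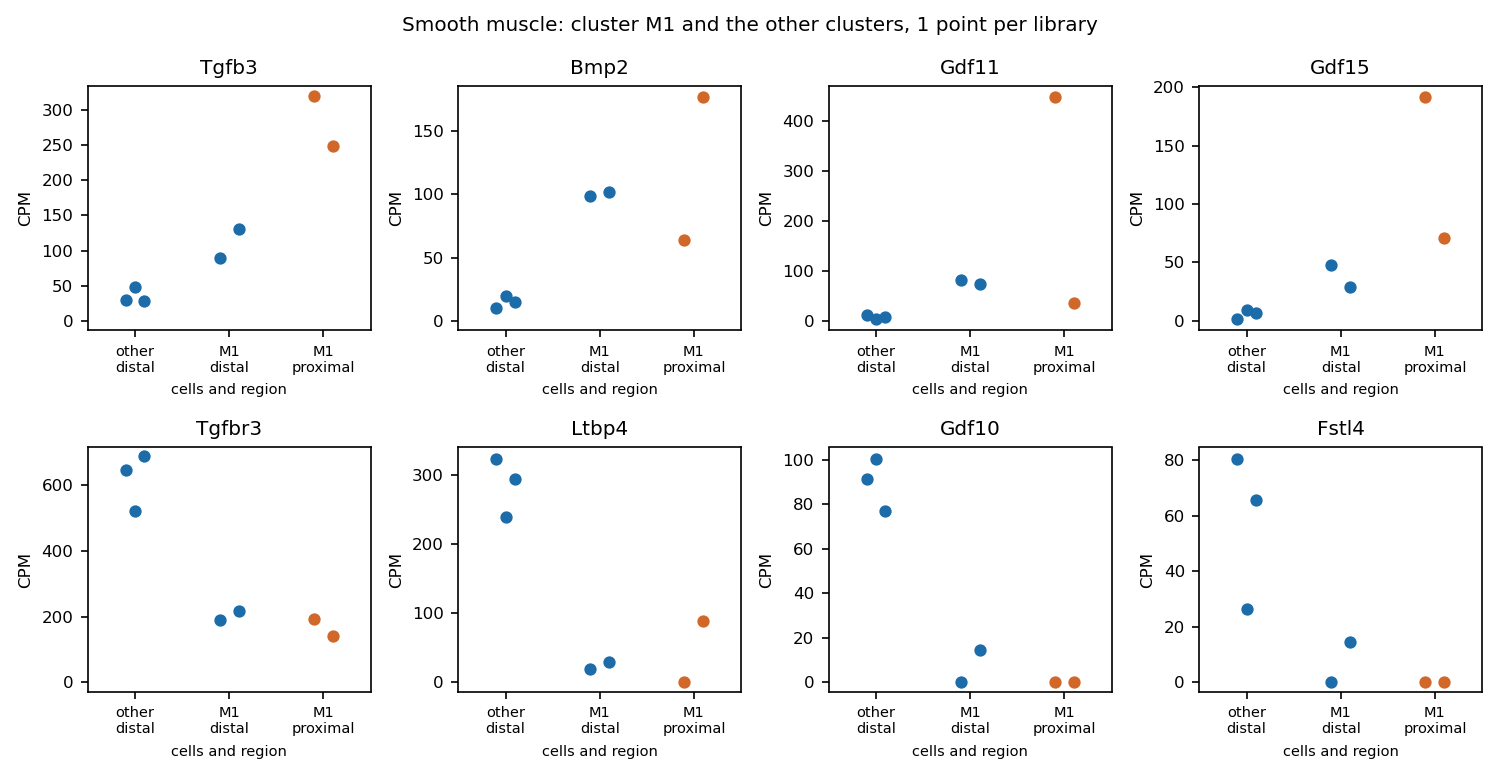
Each panel plots the CPM of 1 gene called in smooth muscle, 1 point per library, in distal cells outside cluster M1, distal M1 cells and proximal M1 cells. The distal M1 points lie on the side of the proximal points for all 8 genes, although Tgfb3 and Gdf15 are higher still in the proximal ones.

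In blood endothelium 2 of 14 members tested changed, against 5.33% of 3394 genes called higher and 6.36% called lower. The medians were 0.218 over the members and -0.008 over all genes. Tgfbr3 stood at 376, 322 and 453 CPM in distal 1, 2 and 3 and at 632 and 855 CPM in proximal 3 and 4, from 599 and 99 UMIs, with no overlap (log2 difference 0.98, SE 0.28, adjusted p = 0.0338). The Tgfbr3 call was lost without any 1 library other than distal 3 (adjusted p = 0.0727 to 0.568), and without proximal 4 the log2 difference was 0.46. Tgfb1 fell, from 187, 193 and 132 CPM to 63.2 and 43.3 CPM, from 267 and 6 UMIs (-1.79, SE 0.51, adjusted p = 0.0342). Both proximal values of Tgfb1 lay under the distal ones, but they rest on those 6 UMIs, too few to measure the spread between them. Tgfb1 passed the filter on low counts only through the distal libraries, where it was high. The Tgfb1 call was lost with DESeq2 (adjusted p = 0.0867), and without distal 1 (0.106), proximal 3 (0.0648) or proximal 4 (0.346).

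Tgfb2 stood at 79.3, 64.4 and 82.9 CPM against 0 and 21.7 CPM (adjusted p = 0.0747), Ltbp4 at 264, 150 and 220 CPM against 316 and 509 CPM (adjusted p = 0.0522), and neither passed the test. T and NK cell markers, of a cell type that makes Tgfb1, summed to 7.15 to 20.7 CPM in distal and 126 to 152 CPM in proximal endothelium, with 5 and 2 of 9 at 0. Pericyte markers summed to 50.1 to 526 CPM in distal and 0 to 43.3 CPM in proximal endothelium, with 0 and 5 of 8 at 0. The part of either cell type in these differences was not tested. Bmpr2, Acvrl1 and Tgfbr2 had log2 differences of -0.05, -0.29 and -0.25 (adjusted p = 0.945, 0.639 and 0.704). No Smad was called in any of the 5 classes, and the nearest was Smad2 in smooth muscle (log2 difference 1.67, adjusted p = 0.0824).

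Whether the region difference itself differed between fibroblasts and non-ciliated epithelium was tested by an interaction term with the library as a block. Of 43 members tested 3 were called, 2 with a more positive difference in fibroblasts and 1 with a more negative one, against 0.866% and 0.891% of 15821 genes. Gdf15 differed by -4.40 on the log2 scale (SE 0.64, adjusted p = 0.00123), with region differences of -2.05 in fibroblasts and 3.35 in epithelium. Ltbp4 differed by 2.09 (SE 0.50, adjusted p = 0.0445), with 1.59 in fibroblasts and -0.57 in epithelium. Acvr2a differed by 1.98 (SE 0.46, adjusted p = 0.034), although in neither class alone was it called: fibroblasts had 21.3, 15.9 and 17.9 CPM in the distal and 14.8, 21.1 and 47.6 CPM in the proximal libraries, and epithelium 39.1, 37.9 and 54.5 against 5.60, 21.6 and 28.4 CPM. Gdf15 lost its call without proximal 4 (adjusted p = 0.0764), Ltbp4 without any 1 library other than proximal 2 (0.0678 to 0.214) and Acvr2a without distal 1, distal 3, proximal 3 or proximal 4 (0.065 to 0.0982).

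The other genes of the pathway were read from the same fits, using a list of 65 modulators, proteases and targets. In non-ciliated epithelium 5 of 40 tested rose and 3 fell, against 2.32% of all genes tested called higher and 0.825% lower. Apart from the BMP targets Id1, Id2 and Id3, those that rose were Tll1, a chordin-cutting protease of the Bmp1 family, at 9.18, 3.27 and 9.43 CPM against 12.6, 142 and 115 CPM (log2 difference 3.31, SE 0.69, adjusted p = 0.0331), and Msx1, a BMP-responsive transcription factor (2.41, SE 0.46, adjusted p = 0.0268). The 3 that fell were Pmepa1, a TGF-beta target that dampens Smad signalling, at 71.7, 30.8 and 71.5 CPM against 4.20, 12.9 and 12.6 CPM (-2.80, SE 0.52, adjusted p = 0.0236), the BMP antagonist Nbl1 (-2.56, SE 0.48, adjusted p = 0.0255) and the convertase Pcsk5 (-2.90, SE 0.66, adjusted p = 0.0442). None of the 8 was called without E12 and E14, where Id1 stood at -0.15 (adjusted p = 0.95). That fit also lacked proximal 3, which then had under 10 cells. In ciliated epithelium Id1 alone of 42 was called (2.86, SE 0.50, adjusted p = 0.0295), against 0.634% of all genes called higher and 0.431% lower.

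In fibroblasts 4 of 45 pathway genes fell and 0 rose (edgeR; 13 had an unadjusted p under 0.05): Tll2 (log2 difference -3.34, SE 0.63, adjusted p = 0.0251), Nbl1 (-1.49, SE 0.32, adjusted p = 0.0345), Id2 (-1.36, SE 0.32, adjusted p = 0.0477) and Htra3, a serine protease that binds TGF-beta ligands (-1.33, SE 0.31, adjusted p = 0.0482). Nbl1 stood at 1728, 1751 and 2011 CPM in the distal and 664, 801 and 746 CPM in the proximal fibroblasts. Of all genes tested in fibroblasts, 1.95% were called higher and 0.908% lower. In smooth muscle 4 of 37 rose and 6 fell, against 5.57% of all genes tested called higher and 8.73% lower. Those that rose included Thbs1, an activator of latent TGF-beta, at 123, 79.9 and 70.1 CPM against 1534 and 2124 CPM (3.94, SE 0.33, adjusted p = 7.33e-29), Lrrc32, which anchors latent TGF-beta at the cell surface (4.27, SE 0.55, adjusted p = 1.95e-12), and Crim1, which tethers BMPs (3.08, SE 0.33, adjusted p = 1.5e-17). Over the whole class Htra3 had 1079 and 0 UMIs, at least 4.46-fold lower in the proximal tube (adjusted p = 4.8e-06). Within M1, Thbs1 alone of these 10 was called (2.61, adjusted p = 0.0253).

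In blood endothelium 3 of 23 rose and 1 fell, against 5.33% of all genes tested called higher and 6.36% lower. Thbs1 stood at 38.7, 14.3 and 25.9 CPM against 253 and 942 CPM (log2 difference 4.43, SE 0.42, adjusted p = 4.15e-05), and Tll1 at 32.7, 57.2 and 36.3 CPM against 190 and 325 CPM (2.93, SE 0.40, adjusted p = 0.00052). Tgfbi, a TGF-beta-induced matrix protein, rose (2.95, SE 0.56, adjusted p = 0.00429) and the BMP target Id3 fell (-1.44, SE 0.31, adjusted p = 0.00884). Thbs1 and Tll1 each had no overlap between regions, and both lost their call without proximal 4, which leaves 1 proximal library. Both passed the filter on low counts only through the proximal libraries. At their distal levels they could enter the test only by being higher proximally, so the filter partly set their direction and lack of overlap. Across the classes, Thbs1 rose in smooth muscle and blood endothelium, Tll1 in non-ciliated and blood endothelial cells, and Nbl1 fell in non-ciliated epithelium, fibroblasts and smooth muscle.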

How the data were processed

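Uterine tube cells of 3 distal and 3 proximal libraries were profiled by 10x Genomics 3' v2 capture. The deposited matrices hold raw UMI counts per gene and barcode, 1 matrix per library. Cell Ranger 6.1.2 and mm39 are listed in the submitters' processing notes; another version of Cell Ranger stands in the file headers. Barcodes with at least 500 UMIs, 250 genes and at most 20% mitochondrial UMIs were kept, and the barcodes with the highest Scrublet scores were removed as doublets (1 to 398 per library, a share that grows with its number of barcodes). Cells were clustered in scanpy 1.11.5 (2000 variable genes without the members and pathway genes, 30 components, 15 neighbours, Leiden resolution 1), and epithelial and smooth muscle clusters were clustered again with 20 components. A cluster took a class name from at least 3 detected markers whose log2 CPM lay on average at least 1.5 above the mean of all clusters.

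Counts were summed per library and class (at least 10 cells) and tested with edgeR 4.0.16, with filterByExpr at its default minimum counts. This filter keeps a gene that reaches a set level in as many libraries as the smaller region has. A first check on simulated counts, with the same spread for all genes, recovered 0 to 10% of log2 changes of 1 over the classes. Of log2 changes of 2 it recovered 53% in non-ciliated and 14% in ciliated epithelium. The share was 59% in fibroblasts, 9% in smooth muscle and 51% in blood endothelium. A member that was not called is thus not shown to be unchanged. For genes with no count in a group, bounds use 3 counts over the group and cover counting error only. Named are all members called in a class, members reaching 20 CPM, and at most 6 called pathway genes per class by size of change; members and lists were chosen with earlier results of these data known. Members that missed the threshold are named after their values were seen. Alternatives covered DESeq2 1.42.0, filters, thinning, doublets, mitochondrial share, resolution, replicate blocks and leaving out each library. Titles number the libraries 1, 2, 3 and 2, 3, 4, while descriptions number the distal ones 1, 2 and 4, so the main tests use no pairing. Sequences come from RefSeq tables of GRCm38.p6. The values of 1 member are not reported here.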

Additional observations from a re-analysis of the deposited data

Results flagged for a closer look

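The proximal-over-distal difference of 3 members was not the same in fibroblasts as in non-ciliated epithelium, by edgeR's test of the difference itself with the library as a block. Gdf15 differed by -4.40 on the log2 scale, Ltbp4 by 2.09 and Acvr2a by 1.98 (fibroblasts minus epithelium). For Gdf15 the proximal epithelial counts were held mostly by cluster E12 (64 of 68 UMIs), and fibroblasts had 191 distal and 6 proximal UMIs. Ltbp4 in the proximal libraries stood at 518 to 1269 CPM in fibroblasts and at 25.9 to 84.0 CPM in non-ciliated epithelium. The region differences of Acvr2a were 0.43 in fibroblasts and -1.49 in epithelium, and neither was called.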

How the results depend on the processing

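Of the members called, Fst in fibroblasts was called under every alternative run, and among called members Gdf15 in non-ciliated epithelium alone turned its direction in any. Reversed values arose without clusters E12 and E14, for Gdf15 (-0.063), Id3 (-0.93) and Id1 (-0.15) in non-ciliated epithelium, and without proximal 4 for Ccn2 in smooth muscle (-7.87, adjusted p = 0.532; 3.12 without proximal 3). The 5 alternatives that keep or drop clusters (C0, E12 and E14, E0 and E1, C2, M1) were chosen after seeing the data. Without E12 and E14, and within C0 alone, proximal 3 had under 10 cells of non-ciliated epithelium and did not enter. Counts of members called (main 1 in non-ciliated epithelium, 1 in ciliated epithelium, 3 in fibroblasts, 8 in smooth muscle, 2 in blood endothelium and 3 for the difference of fibroblasts and epithelium) moved as follows, and the cause was not tested. In non-ciliated epithelium DESeq2 called 7, no filter 9, a term for group 2 6, thinning 0, resolution 2 2, cluster C0 alone 0, without E12 and E14 0, without E0 and E1 2, and leaving out each library 0 to 6. In ciliated epithelium DESeq2 called 2, no filter 3, thinning 0, and leave-one-out 0 to 1. In fibroblasts no filter called 8, the group 2 term 7, and leave-one-out 1 to 7. In smooth muscle thinning called 1, M1 alone 0, and leave-one-out 3 to 8. In blood endothelium DESeq2 called 1, no filter 1, the group 2 term 0, and leave-one-out 0 to 2. For the difference of classes no filter called 10, and leave-one-out 1 to 7. Pathway genes called moved from 8 in non-ciliated epithelium to 13 with DESeq2, 13 with no filter, 14 with the group 2 term, 4 with thinning, 0 within C0, 0 without E12 and E14, and 0 to 18 leaving out each library. From 1 in ciliated epithelium they moved to 0 with thinning, 0 at a mitochondrial share of 10%, and 0 to 1 in leave-one-out. From 4 in fibroblasts they moved to 7 with DESeq2, 9 with no filter, 9 with the group 2 term, 0 with thinning, 1 within C2, and 0 to 12 in leave-one-out. From 10 in smooth muscle they moved to 5 with thinning, 1 within M1, and 6 to 11 in leave-one-out, and from 4 in blood endothelium to 1 to 4 in leave-one-out. DESeq2 called 1484 of all genes in non-ciliated epithelium against 400, 580 against 141 in ciliated epithelium and 226 against 397 in blood endothelium. With no filter 1348, 698 and 1413 genes were called in non-ciliated epithelium, ciliated epithelium and fibroblasts (394 with it). No filter moved the median log2 difference of all genes to -0.608, -1.369, -0.262, -1.677 and -1.0 in non-ciliated epithelium, ciliated epithelium, fibroblasts, smooth muscle and blood endothelium, and the share of calls that were higher from 73.8, 59.6, 68.3, 38.9 and 45.6% to 52.7, 45.1, 55.8, 25.7 and 25.3%. With the title number as a replicate block 3 members were called in non-ciliated epithelium, and with the description number 3 there and 5 in fibroblasts. The numbers are not shown to pair the libraries. Each library's log CPM was taken as a deviation from the mean of its region. Between libraries with the same title number these deviations correlated at 0.406 and 0.137 in fibroblasts and at 0.612 and 0.381 in epithelium. There were 2 pairs only, and the deviations within a region sum to 0, which constrains the values. Blocks could not be fitted in smooth muscle and blood endothelium, nor the title block in ciliated epithelium, and resolution 2 gave no ciliated value because the proximal cells took other names. Depth limits the proximal smooth muscle and endothelium most, where 1 UMI was worth up to 63.9 CPM.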

Other observations

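A cluster of 60 cells from the distal libraries, with granulosa or luteal markers among its leading genes (Cyp11a1, Hsd3b1), lies outside the 5 classes. Its cells numbered 28, 18 and 14 in distal 1, 2 and 3, and 0 in the proximal libraries. Fst stood at 299, 322 and 248 CPM in this cluster, against 43.2 to 63.6 CPM in C1, the fibroblast cluster with the highest distal mean. The inhibin and activin subunit genes Inha and Inhba, under 20 CPM in all 5 classes, stood there at 152, 891 and 78.7 CPM and at 156, 201 and 225 CPM. Bmpr1b stood at 243, 355 and 371 CPM.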
